A study of Mus musculus with 16 samples.

Results

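The azacitidine effect was measured here as a single contrast over both genotypes: the mean of the 2 treated groups minus the mean of the 2 vehicle groups, with every genotype weighted equally. All 16 libraries of the series entered it, 8 treated and 8 control, chosen by their labels alone. Of the 31342 counted rows, 30141 were gene identifiers and 18341 of those had enough counts to be tested.

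The RNA came from mouse LSK cells, the lineage-negative, Sca1-positive, Kit-positive fraction of bone marrow. WT with NaCl (4 libraries) and WT with azacitidine (3 libraries) had donors with mouse WT DNMT3A +/+. R882H with NaCl (4 libraries) and R882H with azacitidine (5 libraries) had donors that carried a human DNMT3A R882H knock-in beside a mouse WT allele, with a Lox-Stop-Lox cassette that Mx1-Cre excises. Mx1-Cre is switched on by interferon, which poly(I:C) elicits, and it acts in many blood cells as well as outside the blood. Per the labels' protocols, poly(I:C) was given to donors both with and without Mx1-Cre, at 15 µg/g on 3 days, and marrow was taken 4 weeks later. The same protocols also give another schedule, and do not say which applied to these libraries. In all 4 groups the donors carried CD45.2, their marrow was mixed 1:1 with WT marrow carrying CD45.1, and the mixture was transplanted into CD45.1 recipients. Recipients received azacitidine at 2.5 mg/kg or 0.9% NaCl by injection over 2 weeks, 5 days on and 2 days off. The sources used here leave unsaid whether the sort kept CD45.1 competitor cells out, whether each library is a separate mouse, how old the animals were or what a replicate number stands for. P-values therefore measure the spread between these libraries, which may be partly technical.

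Azacitidine is a cytidine analogue that cells take up through nucleoside transporters and phosphorylate. Part of it enters DNA, where DNA methyltransferases become trapped on it and are degraded, so that methylation is lost as cells divide, and a larger part enters RNA. Genes held silent by promoter methylation, imprinted genes, germline genes and endogenous retroelements are the classes usually examined after such treatment, together with the interferon response that retroelement RNA can elicit. LSK cells hold the haematopoietic stem cells and the earliest multipotent progenitors, and DNMT3A, the de novo methyltransferase, is the gene most often mutated in clonal haematopoiesis.

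Total counts ran from 35860445 to 56012766 per library, and repeat families took 3.46 to 10.1% of the counts of treated libraries (median 4.27%) and 2.97 to 6.81% of those of controls (median 3.84%). Levels below are CPM, gene counts scaled to the TMM-normalised library size by edgeR, and changes are log2 differences, azacitidine minus NaCl. The labelled cell fraction was checked against its markers: Kit stood at 410 to 1226 CPM, Cd34 at 427 to 1376, Flt3 at 166 to 798 and Ly6a, which encodes Sca1, at 30.6 to 276 over the 16 libraries. Libraries numbered 1 or 2 stood apart from those numbered 3 or more in several groups. Ribosomal protein genes, for example, summed to 37320 to 52080 CPM in the 4 control libraries numbered 1 or 2 and to 20820 to 26300 CPM in the other 4. R882H with NaCl replicates 1 and 2 also stood apart from the other libraries of their group. Replicate 1 held 22.3 CPM of the T cell receptor chain Cd3d and 17550 CPM of mitochondrially encoded transcripts, and replicate 2 held 16380 CPM of erythroid and haem genes, against 2418 to 2899 CPM in the 5 treated libraries of that genotype. For this reason values within each number set and values without these libraries are given beside the results they touch. The fit that left out both of these replicates also left out WT with azacitidine replicate 1, which had the highest repeat share, 10.1%.

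With 8 libraries on each side, edgeR's quasi-likelihood test called 4 genes at a Benjamini-Hochberg adjusted p under 0.05, which is 0.0218% of the genes tested. The 3 that rose were the secreted lectin Clec11a, the receptor Cd200r3 and the antisense transcript 4933406J09Rik, and the antisense transcript Gm11837 fell. For 3 of the 4, the 8 treated libraries did not overlap with the 8 controls. Complete separation of the 8 treated from the 8 control libraries was seen for 15 genes in the higher direction (0.0818% of those tested) and 3 in the lower direction (0.0164%). The biological coefficient of variation was 40.7%. On simulated data for this contrast the same model recovered 39.2% of genes altered 2-fold and 82% of genes altered 4-fold. The simulated libraries had no genotype effect and no difference between number sets, so these rates may not hold for the real ones. What limited the count of calls was not tested. At an unadjusted p under 0.05 there were 1257 genes (6.85% of those tested), 551 higher and 706 lower (3 and 3.85%). DESeq2, an alternative test on the same genes, called 169 (0.921%), among them all 4 of the edgeR calls.

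Because the methylation that azacitidine lowers lies mainly on CG dinucleotides, the promoter windows of the called genes are shown. They run from 250 bases before to 50 after the RefSeq start, 5′ to 3′ on the gene's strand, GRCm38.p6, with each CG in capitals. RefSeq held an entry for 3 of the 4 called genes. The windows are chr7:44306910-44307209 (minus strand) for Clec11a, chr16:44943428-44943727 (plus strand) for Cd200r3 and chr6:134403366-134403665 (minus strand) for 4933406J09Rik. That of Clec11a lies wholly upstream of the annotated gene whose coordinates are given below.
Clec11a: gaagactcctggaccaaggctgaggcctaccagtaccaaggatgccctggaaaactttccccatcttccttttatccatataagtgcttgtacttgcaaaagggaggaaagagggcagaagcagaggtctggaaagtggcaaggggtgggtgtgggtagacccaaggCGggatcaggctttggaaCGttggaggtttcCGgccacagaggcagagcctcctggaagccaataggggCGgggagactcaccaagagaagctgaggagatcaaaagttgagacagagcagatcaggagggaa
Cd200r3: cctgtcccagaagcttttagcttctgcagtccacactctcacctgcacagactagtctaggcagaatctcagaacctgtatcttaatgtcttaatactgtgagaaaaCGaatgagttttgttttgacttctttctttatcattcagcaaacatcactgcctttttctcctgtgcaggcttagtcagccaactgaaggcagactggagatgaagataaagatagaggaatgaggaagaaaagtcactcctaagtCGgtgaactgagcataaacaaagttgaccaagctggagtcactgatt
4933406J09Rik: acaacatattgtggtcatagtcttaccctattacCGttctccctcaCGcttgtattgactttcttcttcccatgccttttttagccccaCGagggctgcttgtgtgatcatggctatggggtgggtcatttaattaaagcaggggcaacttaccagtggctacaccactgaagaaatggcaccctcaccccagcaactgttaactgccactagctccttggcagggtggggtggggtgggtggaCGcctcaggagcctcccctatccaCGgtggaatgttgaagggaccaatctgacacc
The letters CG, which read the same on both strands, occurred 4 times in the Clec11a window, 2 times in that of Cd200r3 and 5 times in that of 4933406J09Rik. Of all promoter windows of this length in the table, 68.1, 85.4 and 61.7%, respectively, held as many or more. Methylation was not analysed here, so these counts describe the letters and not their state.

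Clec11a (ENSMUSG00000004473, chromosome 7, 44302687 to 44306902, minus strand, protein coding) encodes a secreted C-type lectin, also known as stem cell growth factor or osteolectin, that acts on haematopoietic progenitors and bone-forming cells. It stood at 11.95, 11.6, 6.74 and 6.96 CPM in WT with NaCl replicates 1 to 4 and at 25.8, 42.8 and 14.4 CPM in WT with azacitidine replicates 1 to 3. In R882H it stood at 10.01, 9.12, 7.09 and 7.16 CPM with NaCl and at 22.2, 22.3, 23.7, 19.2 and 18.9 CPM with azacitidine. The lowest treated library, WT with azacitidine replicate 3, was above the highest control, WT with NaCl replicate 1, and the 5 treated R882H libraries lay close together. The averaged log2 change was 1.46 (SE 0.20, edgeR quasi-likelihood adjusted p = 0.0148), a 2.75-fold rise, made up of 1.57 in WT and 1.35 in R882H. With only the libraries numbered 1 or 2 the change was 1.37 (SE 0.23), and with only those numbered 3 or more it was 1.29 (SE 0.12, edgeR adjusted p = 0.0147). The call was lost when replicate 4 of either control group, or replicate 3 of R882H with NaCl, was left out, with a Clec11a change of 1.4 to 1.43 and edgeR adjusted p of 0.0557 to 0.0573.

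4933406J09Rik (ENSMUSG00000107666, chromosome 6, 134308951 to 134403415, minus strand) is an antisense transcript of no established function. Its levels were 0.305, 0.480, 0.532 and 0.304 CPM in WT with NaCl and 3.33, 2.71 and 1.85 CPM in WT with azacitidine. In R882H they were 0.531, 0.257, 0.455 and 0.625 CPM with NaCl and 1.39, 2.76, 3.06, 1.56 and 2.47 CPM with azacitidine. The counts behind these values were 10 to 30 reads in each control library and 65 to 151 in each treated one, and the highest control, at 0.625 CPM, was below the lowest treated library, at 1.39 CPM. The averaged change was 2.47 (SE 0.27, edgeR adjusted p = 0.00133), with 2.69 in WT and 2.26 in R882H. It was 2.66 (SE 0.45) in libraries numbered 1 or 2 and 2.12 (SE 0.32) in those numbered 3 or more, and the gene was called in each of the 16 fits that left out a single library.

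The body of 4933406J09Rik overlaps Bcl2l14 (134396318 to 134438736, plus strand), a member of the BCL2 family of apoptosis regulators, and the strand setting of the counting is not given in the sources used here. Reads from the 2 genes can therefore not be told apart with certainty. Bcl2l14 stood at 8.25 to 13.4 CPM in treated and 3.22 to 10 CPM in control libraries, with an averaged change of 0.69 (SE 0.20, edgeR adjusted p = 0.343), 0.26 in WT and 1.13 in R882H. The nearest tested genes on either side, the transcription factor Etv6 and the WNT co-receptor Lrp6, had averaged changes of 0.15 and 0.07.

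Gm11837 (ENSMUSG00000086587, chromosome 4, 14929908 to 14953030, plus strand), an antisense transcript of no established function, was the single gene that fell. It stood at 1.69, 1.73, 1.54 and 2.55 CPM in WT with NaCl and 0.384, 0.433 and 1.00 CPM in WT with azacitidine. In R882H it stood at 3.48, 5.01, 2.75 and 3.10 CPM with NaCl and 0.767, 0.897, 0.518, 0.664 and 0.741 CPM with azacitidine. All 8 treated libraries were at or under 1.00 CPM and all 8 controls at or above 1.54 CPM, and the R882H controls were all higher than the WT controls. The averaged change was -1.97 (SE 0.25, edgeR adjusted p = 0.0055), with -1.63 in WT and -2.31 in R882H, and the difference between genotypes was not called (edgeR adjusted p = 0.765). It was -2.21 (SE 0.35) in libraries numbered 1 or 2 and -1.62 (SE 0.27) in those numbered 3 or more, and it too was called in each of the 16 fits that left out a single library. Gm11837 overlaps the 3′ end of Necab1, which lies on the other strand and had too few counts to be tested. Its nearest tested neighbours, Pip4p2 and Tmem64, had averaged changes of -0.16 and -0.21.

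Cd200r3 (ENSMUSG00000036172, chromosome 16, 44943678 to 44981380, plus strand, protein coding) encodes an activating receptor of the CD200 receptor family that marks mast cells and basophils. Its levels in WT with NaCl were 0.0470, 0.0267, 0.203 and 0.0468 CPM, from 2, 1, 8 and 2 reads, and in WT with azacitidine 1.44, 1.49 and 0.898 CPM. In R882H they were 0.472, 0.462, 0.407 and 0.375 CPM with NaCl and 0.853, 1.85, 0.636, 0.856 and 0.445 CPM with azacitidine, where replicate 5 lay within the controls. The averaged change was 2.53 (SE 0.39, edgeR adjusted p = 0.033). It rested mainly on WT, with 3.94 against 1.11 in R882H, and that difference was not called (edgeR adjusted p = 0.763). This was the least stable of the 4 calls: it was made in 6 of the 16 fits that left out a single library. The neighbouring family member Cd200r4 stood at 1.31 to 10.2 CPM in treated and 1.64 to 5.08 CPM in control libraries (averaged change 0.94, edgeR adjusted p = 0.531).

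**Figure D1:**
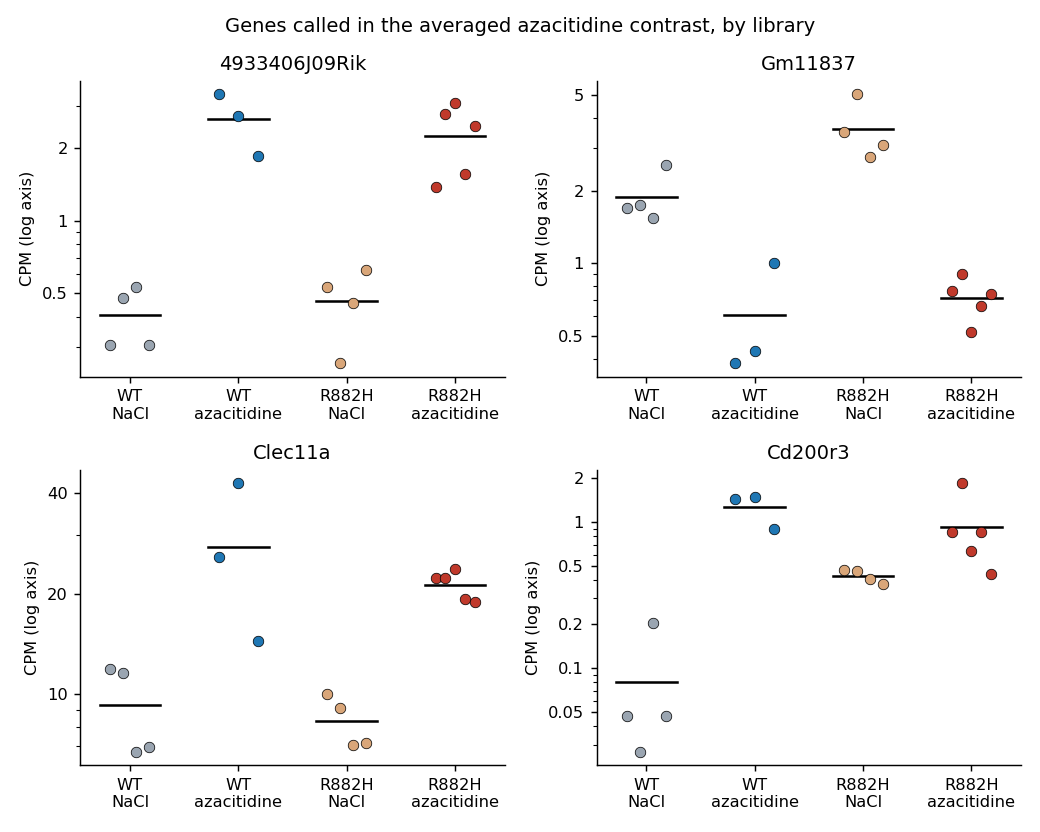
CPM of the 4 called genes in each library on log axes, by group; each point is 1 library and each bar the group mean. The treated and control libraries do not overlap for 4933406J09Rik, Gm11837 and Clec11a, and for Cd200r3 the treated R882H library at 0.445 CPM lies within the R882H controls.

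The next genes in rank were not called, and are given as values. They were chosen by a rule that required a mean log2 CPM of 1 or more, a symbol other than that of an unnamed gene model, and every treated library to lie beyond every control of its own genotype in both genotypes. That separation was a pattern that 31 genes showed in the higher direction and 8 in the lower (0.169 and 0.0436% of those tested). Since this rule fixes their direction, the direction supports nothing. The 12 with the lowest p in the higher direction had averaged changes of 0.51 to 1.76 and edgeR adjusted p of 0.0657 to 0.134. DESeq2 called all 12, limma-voom with quality weights 8, and limma-voom and the fit with the replicate number as a block called 0.

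Several of these 12 encode signalling proteins. Lat2, an adaptor that links Fc and Kit receptors to downstream kinases in mast cells and other blood cells, stood at 109 to 198 CPM in treated and 43.2 to 111 CPM in control libraries, a change of 0.94 (SE 0.16). Tec, a non-receptor tyrosine kinase of blood cells, stood at 55.0 to 79.6 against 31.2 to 51.8 CPM, a change of 0.51 (SE 0.11). Its treated and control libraries did not overlap, and the change was the smallest of the 12.
Rapgef3, the cAMP-activated exchange factor for RAP also called EPAC, stood at 28.03 to 45.2 CPM in treated and 13.2 to 25.3 CPM in control libraries, a change of 0.89 (SE 0.16). Pde10a, a phosphodiesterase that degrades cAMP and cGMP, stood at 2.44 to 8.2 against 0.773 to 2.48 CPM, a change of 1.76 (SE 0.32). Mcf2l, a guanine nucleotide exchange factor, stood at 3.46 to 11.4 against 2.33 to 3.32 CPM, a change of 1.19 (SE 0.23). Rapgef3 and Mcf2l separated all 8 treated from all 8 control libraries, while Pde10a did so within each genotype.

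The others of the 12 had varied roles. Cyp27a1, a mitochondrial sterol hydroxylase of bile acid synthesis, stood at 12.8 to 26.1 CPM in treated and 4.67 to 12.5 CPM in control libraries (1.14, SE 0.22). Hk3, the hexokinase typical of myeloid cells, stood at 168 to 308 against 90.6 to 178 CPM (0.79, SE 0.16). Lmo1, a LIM-only transcriptional adaptor known as a T cell leukaemia oncogene, stood at 3.67 to 7.80 against 1.62 to 4.11 CPM (0.95, SE 0.18).
The remaining 4 were the extracellular matrix protein Ecm1 (0.98), the membrane scaffold Mpp4 (1.22), the glycosyltransferase-domain protein Glt8d2 (0.93) and Rps4l (0.67), a paralogue of a ribosomal protein whose reads may be shared with near-identical copies. Of these, Glt8d2 alone separated all treated from all control libraries, at 3.19 to 4.87 against 1.54 to 2.93 CPM.

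In the lower direction 6 genes met the rule, with averaged changes of -0.77 to -1.38 and edgeR adjusted p of 0.105 to 0.217. DESeq2 called all 6, limma-voom with quality weights 2, and limma-voom and the replicate block 0. Car2, the carbonic anhydrase of early erythroid cells and many progenitors, stood at 704 to 1364 CPM in treated and 1469 to 4485 CPM in control libraries, a change of -0.84 (SE 0.21). Bex4, a small adaptor protein, stood at 2.84 to 5.16 against 5.24 to 23.6 CPM, a change of -1.23 (SE 0.29). These were the 2 of the 6 whose 8 treated libraries lay below all 8 controls.
Cd82, a tetraspanin of long-term stem cells, stood at 57.5 to 107 CPM in treated and 92.9 to 267 CPM in control libraries, a change of -0.77 (SE 0.17). Trim2, a ubiquitin ligase, had -1.38 (SE 0.28), with -0.89 in WT and -1.87 in R882H. Epb41l5, a FERM-domain adaptor of the cell cortex, had -1.27 (SE 0.27), and the lipid-binding protein Sec14l2 had -0.99 (SE 0.23). The highest controls of Cd82, Trim2, Sec14l2 and Car2 were all R882H with NaCl replicate 2, and that of Bex4 was replicate 1 of the same group.

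**Figure D2:**
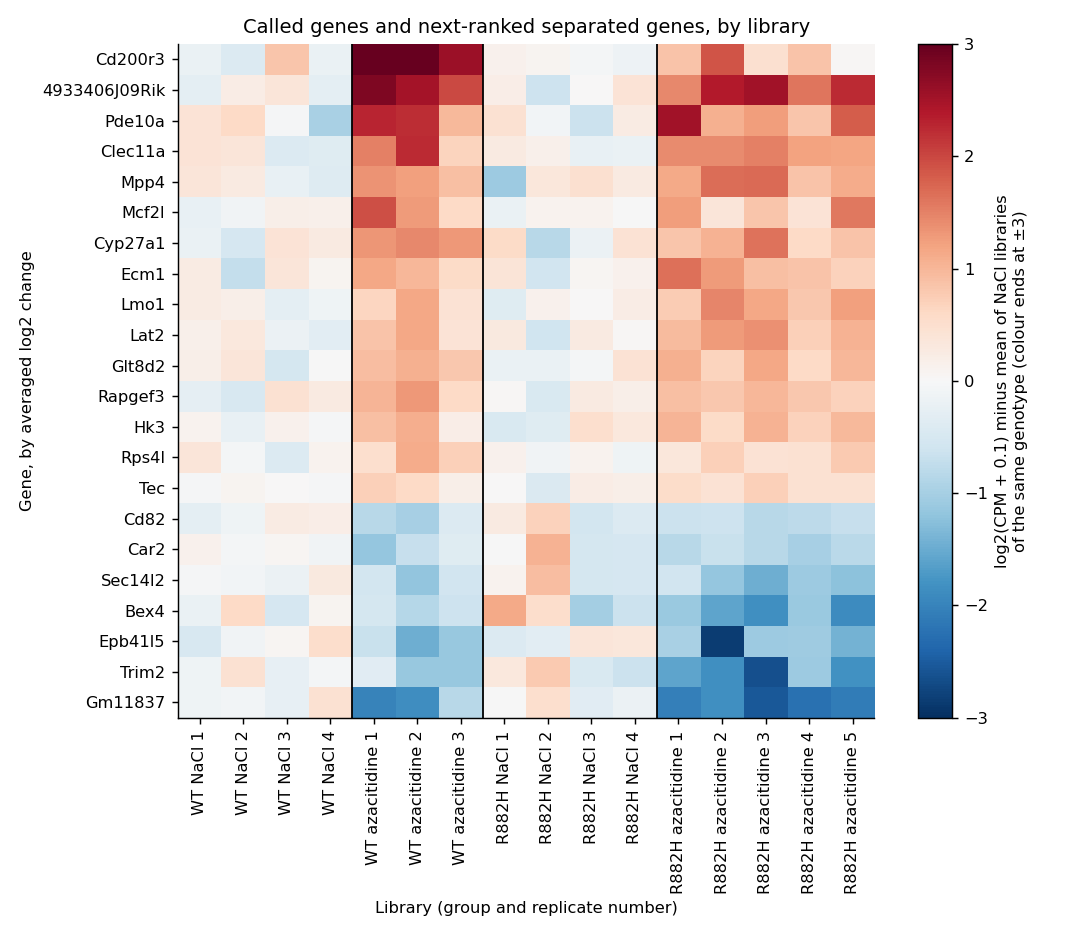
Levels of the 4 called genes and the 18 next-ranked genes in each of the 16 libraries (columns), as log2(CPM + 0.1) minus the mean of the NaCl libraries of the same genotype; red is higher and blue lower, and colours end at 3. The 3 columns of WT with azacitidine and the 5 of R882H with azacitidine hold one direction for each gene, which the rule fixed for the 18.

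The size of the response was compared between genotypes with an interaction term. No gene was called in edgeR at an adjusted p under 0.05, while 1114 (6.07% of those tested) had an unadjusted p under 0.05 and DESeq2 called 12. Among the 4 called and 18 next-ranked genes the interaction p was 0.00178 for Cd200r3, 0.088 for Trim2, 0.091 for Bex4 and 0.169 or more for the others (edgeR, unadjusted). These values do not show that the genotypes responded alike. For Clec11a the difference of R882H minus WT was -0.22 with an SE of 0.40, and for 4933406J09Rik it was -0.43 with an SE of 0.51.

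**Figure D3:**
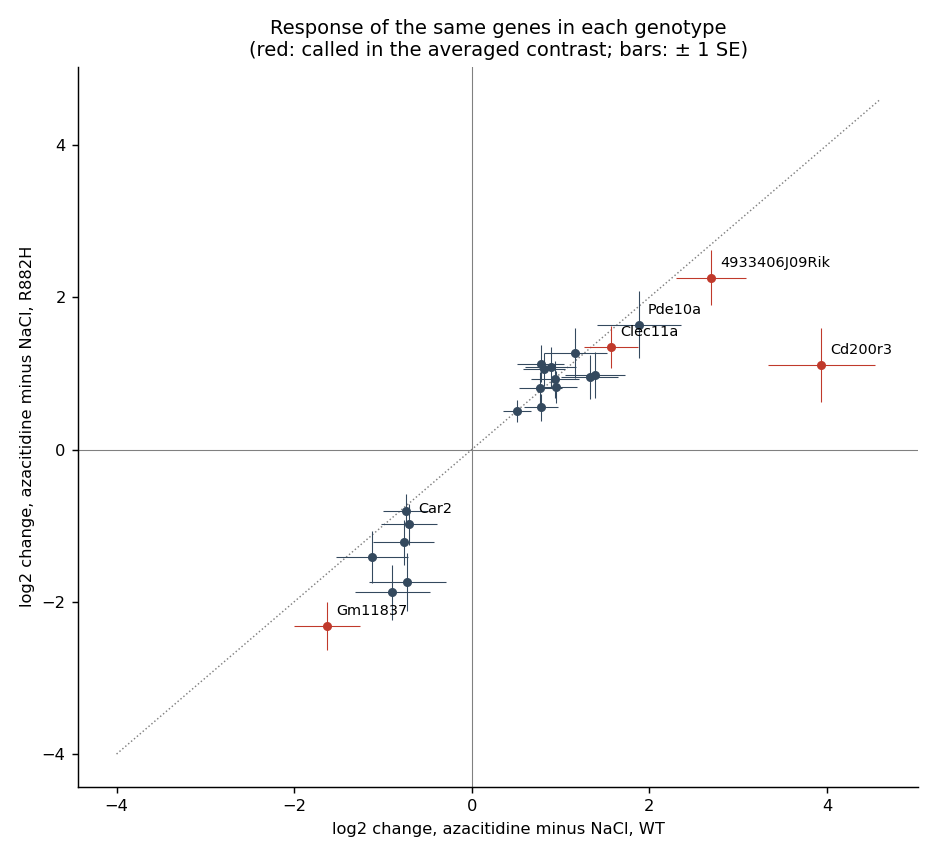
Log2 change with azacitidine in WT (x axis) against that in R882H (y axis) for the 4 called genes (red) and the 18 next-ranked genes (dark), with bars of 1 SE and a dotted line of equality. Cd200r3 lies at 3.94 in WT and 1.11 in R882H, farther from the line than the others.

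The gene classes that hypomethylating treatment is usually examined for were measured next. Except where a call is named, no member of any of the lists below was called in edgeR, so their counts at an unadjusted p under 0.05 are given beside the 3% higher and 3.85% lower of all genes tested. These shares were larger in the fits on fewer libraries: 4.27% higher and 4.36% lower with numbers 1 or 2, 10.8 and 14.5% with numbers 3 or more, and 4.29 and 6.29% when WT with azacitidine replicate 1 and replicates 1 and 2 of R882H with NaCl were left out. The median change over all genes tested was -0.02, with 46.5% of genes above 0 and 53.5% below.

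Of the DNA methylation machinery, 27 genes were tested and none had an unadjusted p under 0.05 in either direction (median change 0.04). The maintenance enzyme Dnmt1 stood at 189 to 503 CPM in treated and 155 to 480 CPM in control libraries, a change of -0.06 (SE 0.22). Its partner Uhrf1, which reads hemimethylated DNA, had -0.05 (SE 0.15), and the de novo enzymes Dnmt3a and Dnmt3b had 0.11 (SE 0.13) and 0.03 (SE 0.16). The sign of Dnmt1, Dnmt3a and Dnmt3b changed under other settings, so no direction is given for them. Tet2, which oxidises methylcytosine, had 0.33 (SE 0.20). The counts of mouse Dnmt3a may or may not include reads of the human knock-in, which the sources used here do not say.

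Of 28 tested genes of azacitidine uptake and nucleotide metabolism, none was higher and 2 were lower at an unadjusted p under 0.05. These were Slc29a1, an equilibrative nucleoside transporter through which azacitidine enters cells (92.3 to 157 CPM in treated and 125 to 312 CPM in control libraries, a change of -0.45, SE 0.17, edgeR adjusted p = 0.519), and the nucleotide kinase Cmpk2, itself an interferon-stimulated gene (-0.33, SE 0.14). Uck2, the kinase that starts the activation of azacitidine, had -0.12 (SE 0.17). Cda, the cytidine deaminase that inactivates the drug, was at 0.308 CPM or lower in all 16 libraries, and its change of -0.07 had an SE of 0.73.

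Of 34 listed germline genes in the files, a class that promoter methylation normally keeps silent, 21 had enough counts to be tested. Those 21 summed to 147 to 164 CPM in WT with NaCl and 157 to 292 CPM in R882H with NaCl. The 21 were kept by a filter on counts, and a sum can rest on a few members. It therefore does not show whether the class was silent in controls. Of the 21, 3 were higher and 1 lower at an unadjusted p under 0.05. The 3 were X-linked paralogues of the Xlr4 family, Xlr4c (5.93 to 11.8 CPM in treated and 1.99 to 9.03 CPM in control libraries, a change of 1.29, SE 0.28), Xlr4a (0.73, SE 0.18) and Xlr4b (0.51, SE 0.12), with edgeR adjusted p of 0.144 to 0.237. Their reads may be shared among near-identical copies, so the 3 values are not independent.

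Imprinted genes, expressed from 1 parental copy under the control of methylation, were lower at an unadjusted p under 0.05 in 10 of 30 tested members and higher in none, with a median of -0.18 and 23 members below 0. Igf2r, the clearance receptor for IGF2, stood at 1.65 to 7.23 CPM in treated and 4.09 to 17.6 CPM in control libraries (-1.25, SE 0.31, edgeR adjusted p = 0.217). Phlda2, a brake on growth, had -0.83 (SE 0.25), and the splicing factor gene Snrpn had -1.57 (SE 0.50) at 2 CPM or lower. The median was -0.14 in libraries numbered 1 or 2 and -0.42 in those numbered 3 or more. Of 9 tested genes derived from retroelements, none had an unadjusted p under 0.05.

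Interferon-stimulated genes, the readout of an antiviral response, held more members lower than higher. Of 70 tested, 16 were lower and none higher at an unadjusted p under 0.05, with a median change of -0.16. The median was -0.37 in WT and 0.00 in R882H. Ifit3, an antiviral protein, stood at 2.40 to 5.27 CPM in WT with NaCl and 0.379 to 1.80 CPM in WT with azacitidine, and at 2.90 to 6.58 against 1.39 to 3.67 CPM in R882H, an averaged change of -1.69 (SE 0.34, edgeR adjusted p = 0.105). Oasl1, an antiviral regulator, had -0.58 (SE 0.17), and the chemokine Cxcl10 had -1.73 (SE 0.50) at 4.64 CPM or lower.
Irf7, the transcription factor that amplifies the interferon response, stood at 42.2 to 54.4 CPM in WT with NaCl and 20.2 to 35.7 CPM in WT with azacitidine, a change of -0.93 there. In R882H it stood at 29.2 to 50.4 and 32.1 to 52.97 CPM, a change of 0.00. The list's median was 0.03 in libraries numbered 1 or 2, where 7 members were lower, and -0.28 in those numbered 3 or more, where 32 were lower and 4 higher in a fit that had 14.5% of all genes lower and 10.8% higher. Of 26 tested sensors of nucleic acids and their adaptors, 2 were lower and none higher.

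Among 32 tested p53 targets, 5 were higher and none lower at an unadjusted p under 0.05, with a median of 0.05. Btg2, an antiproliferative gene, stood at 73.6 to 110 CPM in treated and 29.3 to 73.9 CPM in control libraries (0.75, SE 0.18, edgeR adjusted p = 0.217). Cdkn1a, the p21 inhibitor of the cell cycle, stood at 18.5 to 44.8 against 9.53 to 31.2 CPM (0.72, SE 0.21, edgeR adjusted p = 0.345). Ddit4, an inhibitor of mTOR, had 0.44 (SE 0.18), 0.95 in WT and -0.07 in R882H.
Of 46 DNA repair genes and 35 cell division genes tested, none had an unadjusted p under 0.05 in either direction. Of 45 DNA replication genes 1 did, and it was lower. Changes were below 0 in 41 of these 45, with a median of -0.10 on average, -0.20 in WT and -0.02 in R882H. Apoptosis regulators held 3 higher and 1 lower of 25, among them the anti-apoptotic genes Mcl1 (0.25, SE 0.09) and Bcl2 (0.47, SE 0.17), higher, and their relative Bcl2a1b (-1.37, SE 0.46, at 1.06 CPM or lower).

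Lists of lineage genes were measured next. Megakaryocyte and platelet genes were higher in 12 of 31 tested members and lower in 2 (median 0.29, 24 members above 0). Selp, the P-selectin of platelet granules and also a C-type lectin, stood at 64.6 to 153 CPM in treated and 23.1 to 74.0 CPM in control libraries (1.38, SE 0.24, edgeR adjusted p = 0.0675). F2rl2, a thrombin receptor, stood at 8.49 to 24.6 against 4.23 to 9.25 CPM (1.24, SE 0.21, edgeR adjusted p = 0.0657), and the platelet integrin Itga2b at 247 to 480 against 153 to 288 CPM (0.57, SE 0.13, edgeR adjusted p = 0.18). Treated and control libraries of Selp did not overlap in WT, and those of F2rl2 and Itga2b did not overlap in R882H, while in the other genotype each overlapped. The platelet chemokine Pf4 stood at 63.3 to 369 CPM in treated and 19.9 to 114 CPM in control libraries. The count without R882H with NaCl replicates 1 and 2 and WT with azacitidine replicate 1 was 15 higher and 3 lower, in a fit that had 4.29 and 6.29% of all genes higher and lower, but the median was 0.51 in libraries numbered 1 or 2 and -0.02 in those numbered 3 or more.

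Of 31 tested genes of neutrophil and monocyte priming, 10 were higher and none lower, with 29 above 0 and medians of 0.49 on average, 0.72 in WT and 0.18 in R882H. Clec12a, an inhibitory lectin receptor of myeloid cells, stood at 70.2 to 233 CPM in treated and 39.8 to 116 CPM in control libraries (0.89, SE 0.22, edgeR adjusted p = 0.235). The Fc receptors Fcgr3 and Fcgr2b had 1.15 (SE 0.36) and 0.52 (SE 0.17), and Fcgr3 had 2.11 in WT and 0.18 in R882H. The median was 0.38 in libraries numbered 1 or 2 and 0.36 in those numbered 3 or more, and without the 3 libraries named above 15 members were higher and 1 lower, where the same fit had 4.29 and 6.29% of all genes.
Markers of mature neutrophils, which the sort should exclude, had positive changes in 17 of 18 tested members, 2 of them at an unadjusted p under 0.05, the chemokine receptor Cxcr2 (1.29, SE 0.40) and the cytokine Il1b (1.48, SE 0.53). Their summed level was 312 to 505 CPM in WT with NaCl and 326 to 736 in WT with azacitidine, and 175 to 475 CPM in R882H with NaCl and 377 to 1190 in R882H with azacitidine. The highest sum was that of R882H with azacitidine replicate 2, and without this library the median of the list went from 1.10 to -0.55. Ly6g was at 0 in 9 of the 16 libraries and Retnlg in 3, while Ltf, Camp and S100a8 were above 0 in all 16. S100a8 stood at 1.00 to 155 CPM in treated and 0.862 to 54.2 CPM in control libraries. The part of mature neutrophils in the priming genes was not tested. In bulk RNA a change in the share of a cell type and a change in RNA per cell cannot be told apart.

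C-type lectins, the family of Clec11a, held 8 higher, Clec11a included, and 2 lower of 27 tested members. The list was drawn up around a called gene, so its counts and sums are no separate support for that call. Their summed level was 635 to 1041 CPM in WT with NaCl and 868 to 1385 in WT with azacitidine, and 525 to 729 CPM in R882H with NaCl and 858 to 1089 in R882H with azacitidine. In R882H the treated and control sums, in which Clec11a is counted, did not overlap. The list's median change was 0.07 in R882H and 0.66 in WT. Selp and Clec12a, described above, belong to this list too.

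Mast cell and basophil genes, the cells in which Cd200r3 is best known, were higher in 6 of 27 tested members, Cd200r3 included, and lower in 1 (median 0.26). Their summed level, in which Kit itself is counted, was 2195 to 2595 CPM in WT with NaCl and 2407 to 2826 in WT with azacitidine, and 2010 to 2761 CPM in R882H with NaCl and 2294 to 2948 in R882H with azacitidine. The protease Mcpt8 of basophils stood at 18.3 to 89.2 CPM in treated and 6.84 to 37.4 CPM in control libraries (0.90, edgeR adjusted p = 0.564), and the mast cell protease Cpa3 at 42.5 to 161 against 25.3 to 111 CPM (0.50). The tryptase Tpsb2 was at 0 in all 4 R882H controls and at 0 to 11.7 CPM in the treated libraries. Hpgds, the prostaglandin D synthase of these cells, was the lower member (-1.08, SE 0.36). The part of such cells in the Cd200r3 call was not tested.

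Haematopoietic stem cell genes held 9 lower and 2 higher of 39 tested members (median -0.21). Ifitm1, a membrane protein of stem cells, had -0.61 (SE 0.18). Slamf1, the CD150 antigen by which stem cells are sorted, went the other way, at 13.5 to 40.5 CPM in treated and 7.47 to 16.1 CPM in control libraries (0.81, SE 0.21, edgeR adjusted p = 0.244). The list depended on the number set: 10 members were higher and 1 lower in libraries numbered 1 or 2 (median 0.02), and 3 were higher and 24 lower in those numbered 3 or more (median -0.36). Over all genes these fits had 4.27 and 4.36%, and 10.8 and 14.5%, higher and lower.
Early lymphoid genes held 3 higher and 3 lower of 25. Among the lower members, the chemokine receptor Ccr9 and the cytokine Ltb had -1.62 (SE 0.36) and -0.95 (SE 0.29).

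**Figure D4:**
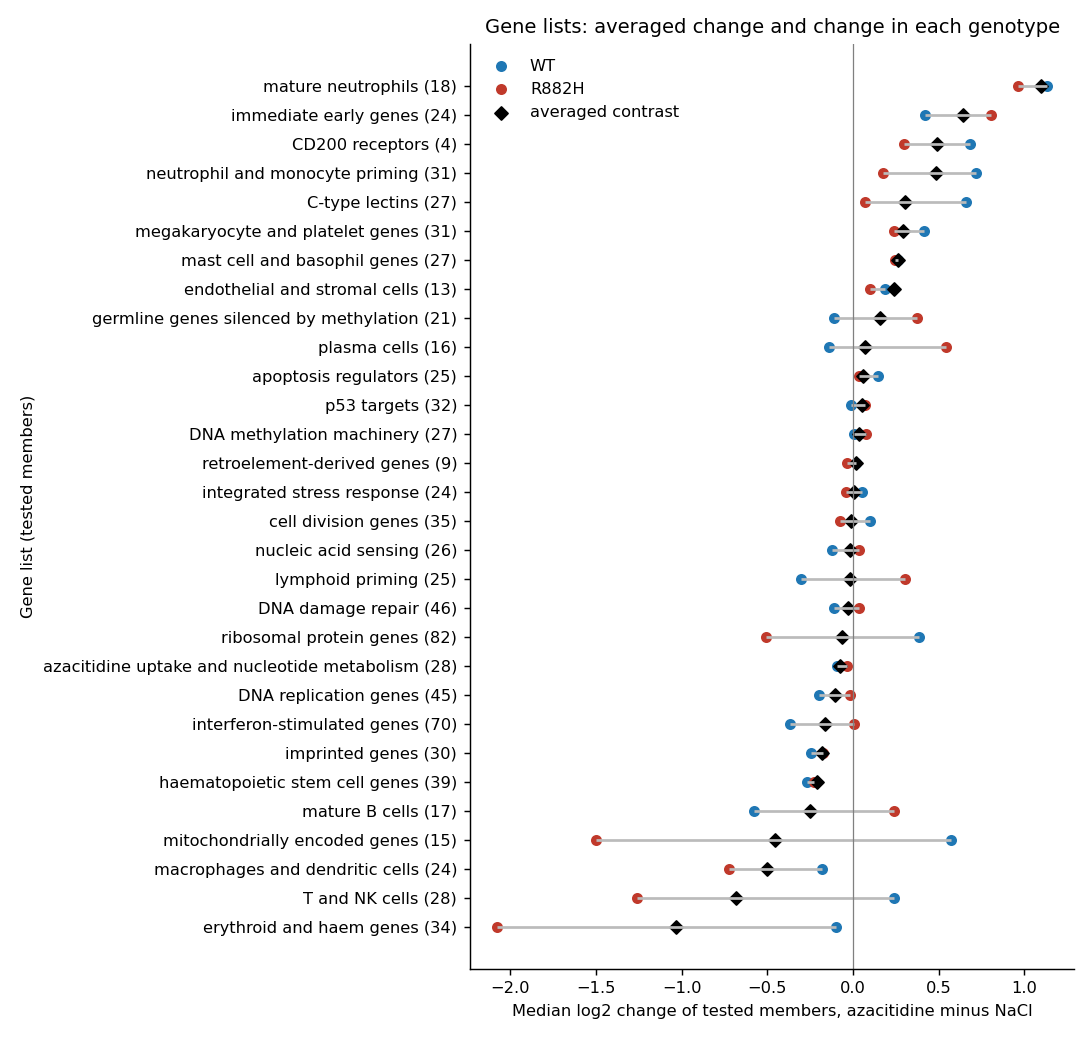
Median log2 change of the tested members of each gene list, azacitidine minus NaCl, in WT (blue), in R882H (red) and in the averaged contrast (black diamonds); the number tested is in brackets. Erythroid, T and NK cell, and mitochondrially encoded lists have the widest gaps between genotypes. Several lists lie above 0 in both, among them mature neutrophil, immediate early, neutrophil and monocyte priming, megakaryocyte, mast cell and C-type lectin genes. The C-type lectin median is 0.66 in WT and 0.07 in R882H.

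The averaged contrast also contained gene groups in which a few controls carried the difference. Erythroid and haem genes were lower at an unadjusted p under 0.05 in 15 of 34 tested members and higher in none, with a median of -1.04. The median was -0.10 in WT and -2.08 in R882H, where the summed level was 6053, 16380, 2525 and 2528 CPM in NaCl replicates 1 to 4 and 2418 to 2899 CPM in the 5 treated libraries. In WT it was 2780 to 3633 CPM with NaCl and 2149 to 2604 CPM with azacitidine, ranges that did not overlap. A sum rests mainly on its most abundant members, and 1 of the 34 members separated lower in both genotypes. The gap in the sum is therefore not a fall of the whole list in WT, where the median was -0.10. Hba-a1, an alpha-globin, stood at 3.52 to 59.6 CPM in WT with NaCl and 3.21 to 211 CPM in R882H with NaCl, and at 0.800 to 15.9 CPM in all treated libraries (-2.66, SE 0.84, edgeR adjusted p = 0.405). Epb42, a membrane skeleton protein of red cells, had -1.78 (SE 0.46). Without R882H with NaCl replicates 1 and 2 and WT with azacitidine replicate 1, the median was 0.16, with 3 members higher and 2 lower. It was -1.70 in libraries numbered 1 or 2 and 0.32 in those numbered 3 or more, so its sign differed between the number sets.

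Markers of T and NK cells, which the sort should exclude, had a median of -0.69, with 4 of 28 lower and none higher. The median was 0.24 in WT and -1.26 in R882H. The summed level was 612 CPM in R882H with NaCl replicate 1 and 141 to 287 CPM in the other 15 libraries, and Cd3e reached 24.2 CPM among controls against 0.696 CPM or lower in treated libraries. Without the 3 libraries the median was 0.42. The 3 with the lowest p, Cd4 (-1.07), Cd6 (-0.99) and Cd247 (-0.79), had negative changes in both genotypes. Picking by p in the averaged contrast favours a shared sign, so these 3 do not speak for the list, whose WT median was 0.24.
Mitochondrially encoded genes had a median of -0.45 over 15 tested members, 0.57 in WT and -1.50 in R882H, and ribosomal protein genes -0.07 over 82, 0.39 in WT and -0.51 in R882H. Neither list held a gene with an unadjusted p under 0.05. Their medians were -0.86 and -0.41 in libraries numbered 1 or 2 and 0.29 and 0.36 in those numbered 3 or more.

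Immediate early genes, which respond within minutes to a stimulus, had positive changes in 22 of 24 tested members, 4 of them at an unadjusted p under 0.05 (median 0.64). Their summed level was 1127, 1161, 3384 and 1825 CPM in R882H with NaCl and 3841, 4487, 3021, 2917 and 2385 CPM in R882H with azacitidine. In WT it was 1382 to 2467 CPM with NaCl and 1192, 1488 and 4584 CPM with azacitidine, so replicate 3 alone was high among the treated WT libraries. Without that library the median of the list was 0.03. Fosb stood at 0.135 to 27.1 CPM in treated and 0 to 2.49 CPM in control libraries, and Junb had a change of 0.63 (SE 0.29).
Markers of macrophages and dendritic cells were lower in 4 and higher in 2 of 24 tested members, with 20 members below 0. Their median was -0.50 on average, -0.18 in WT and -0.73 in R882H. Cd68, a lysosomal protein, was higher (0.66, SE 0.15, edgeR adjusted p = 0.18), and the iron exporter Slc40a1 lower (-1.30, SE 0.42). Plasma cell transcripts summed to 745 to 25450 CPM over the libraries, with both extremes of the controls in R882H with NaCl replicate 2 and WT with NaCl replicate 3, and none of the 16 tested members had an unadjusted p under 0.05. Nor did any of 17 markers of mature B cells. Of 13 endothelial and stromal markers 1 was lower, and of 24 targets of the integrated stress response 1 was higher and 1 lower.

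The libraries were then taken as the 2 number sets, each fitted alone. With numbers 1 or 2 alone, 8 libraries with 2 in each group, edgeR called no gene, while 1586 had an unadjusted p under 0.05. With numbers 3 or more alone, 8 libraries that included a single one of WT with azacitidine, whose spread was taken to equal that of the other groups, it called 860 genes (4.58% of those tested there), 343 higher and 517 lower. Clec11a, 4933406J09Rik and Gm11837 were among them, and Cd200r3 was not, with a change of 1.77 (SE 0.46, edgeR adjusted p = 0.0675). Of the next-ranked genes, 4 of the 12 higher and 3 of the 6 lower ones were called in that set, which holds libraries on which they were chosen. Selp (1.31, SE 0.24), F2rl2 (1.05, SE 0.14) and Ifit3 (-1.47, SE 0.20) were called there as well.

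**Figure D5:**
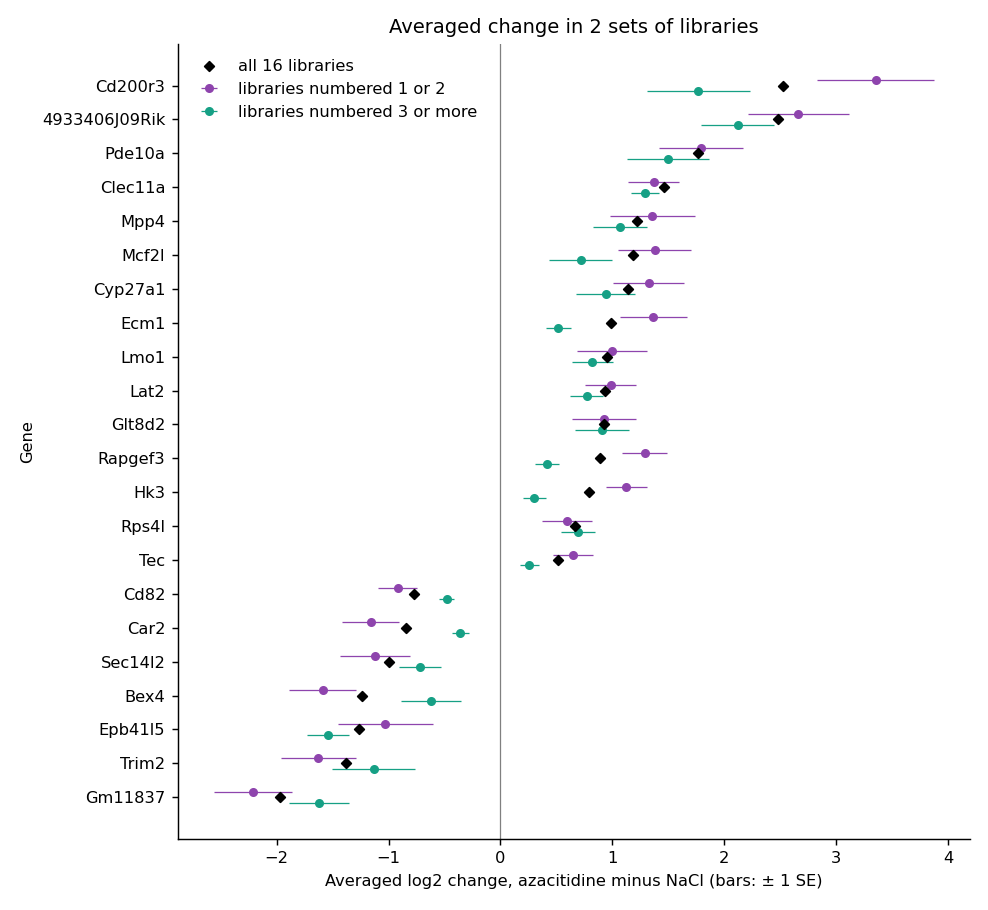
Averaged log2 change of the 4 called and 18 next-ranked genes in all 16 libraries (black diamonds), in libraries numbered 1 or 2 (purple) and in those numbered 3 or more (green), with bars of 1 SE. Clec11a lies at 1.37 and 1.29 in the 2 sets, and Cd200r3 at 3.35 and 1.77.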

How the data were processed

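RNA-seq of 16 mouse LSK libraries was analysed. The deposited values are raw counts, 1 per gene or repeat family and library. The submitters' processing notes name HISAT2 2.0.5, featureCounts 1.6.2, edgeR 3.26.6 and the build GRCm38 (mm10). Strand setting and treatment of multi-mapping reads are not given in the sources used here. The authors excluded RNA of low integrity and amplified cDNA by a kit for low input, per the labels' protocols. Amplified reads carry no molecular identifiers, and errors cover the spread between libraries.

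Groups were taken from the labels. Rows of repeat families, 2.97 to 10.1% of counts, were left out of library sizes and tests. Genes passing filterByExpr of edgeR 4.0.16 with its minimum count of 10 (R 4.3.3) were fitted by quasi-likelihood, with TMM scaling and 1 coefficient per group over all 16 libraries. The averaged contrast and the interaction were tested, with Benjamini-Hochberg adjustment over the 18341 genes and a call at 0.05. SE is the log2 change divided by the square root of F. The model was tested on simulated data for the averaged contrast with 18010 genes, 97 of them altered 2-fold and 100 altered 4-fold; it made 5 false calls. Over 25 pairs of libraries of 1 group the chi-square per gene was 38.4 or more, so no library was a copy.

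Alternatives were DESeq2 1.42.0, limma-voom (limma 3.58.1), other scaling, filters and dispersion, an additive model, the replicate number as a block, each number set alone, and leaving out libraries. Limma-voom with quality weights and the exclusion of 3 libraries were added after seeing the data. The genes named were all calls, up to 12 next-ranked genes each way that separated in both genotypes and averaged 1 or more in log2 CPM (unnamed gene models aside), up to 3 genes of lowest p per list, neighbours of called genes and a fixed set. Members of lists outside this rule, such as defining cell markers, were chosen after their values were seen. The averaged contrast, the lists and the fixed set were chosen with earlier results of these data known. The ribosomal list was narrowed after seeing the data, to leave out kinases with similar symbols. Promoter sequences are from RefSeq, GRCm38.p6. Some genes that the rule selects are not reported here.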

Additional observations from a re-analysis of the deposited data

Results flagged for a closer look

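In 3 of 99 groups of libraries screened over 33 genes, 1 library lay far from the rest of its group; chance alone flags about 1 group in 20. Cd200r3 stood at 0.203 CPM in WT with NaCl replicate 3 and at 0.0267 to 0.047 CPM in the other 3 libraries of that group. Tet2 stood at 20.2 CPM in the same library, against 34.1 to 34.7 CPM in the others. Selp stood at 44 CPM in WT with NaCl replicate 1, against 23.1 to 26.1 CPM. Both the Selp and the Cd200r3 value lay below every treated WT library.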

How the results depend on the processing

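The 4 calls became 169 with DESeq2, 117 with limma-voom and quality weights, 14 with number set as a factor, 18 without R882H with NaCl replicates 1 and 2 and WT with azacitidine replicate 1, 0 with numbers 1 or 2 alone and 860 with numbers 3 or more alone; leaving out 1 library gave 2 to 46 (46 when WT with azacitidine replicate 3 was out, 23 and 9 when R882H with NaCl replicate 2 or 1 was out). The other settings gave 3 to 6. Calls of interaction were 12 with DESeq2, 4 with numbers 1 or 2, 2 with numbers 3 or more and 0 to 0 when leaving out 1 library. Separated genes numbered 16 to 23 higher and 3 to 25 lower when leaving out 1 library (25 without R882H with NaCl replicate 2, 8 when WT with NaCl replicate 1 was out). The fit with a block for replicate number called 3 genes; the block lost Gm11837 (adjusted p = 0.0593) and Cd200r3 (0.109) and added Selp. Whether the numbers pair the samples was not settled: the 21 same-numbered pairs correlated at -0.124 to 0.345, 9 of them over 0.1. Differently numbered pairs correlated at -0.415 to 0.375. Same-numbered libraries of R882H with NaCl and WT with NaCl correlated at 0.101, 0.342, 0.34 and 0.32. Reversed signs were Cd200r4 at -0.226, Dnmt1 at 0.12, Dnmt3a at -0.0909, -0.00382 and -0.0182, Dnmt3b at -0.222, -0.0726, -0.177 and -0.263, Uck2 at 0.021 and 0.0197, and Cda at 0.158, 0.634 and 0.51; leaving out 1 library, Dnmt1 ran from -0.178 to 0.0707, Dnmt3a from -0.0485 to 0.184, Dnmt3b from -0.058 to 0.138, Uhrf1 from -0.145 to 0.00642, Uck2 from -0.193 to 0.0594 and Cda from -0.6 to 0.168. The cause was not tested. The spread between libraries, and few reads for Cd200r3 and Cda, limit the precision.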
